A study of Homo sapiens with 4 samples.

Results

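The miR-191/miR-425 cluster is a pair of microRNA (miRNA) hairpins, MIR191 and MIR425, which give 4 mature miRNAs: hsa-miR-191-5p, hsa-miR-191-3p, hsa-miR-425-5p and hsa-miR-425-3p (written below without hsa). These 4 rows were taken by name from the 2366 human mature miRNAs counted in the deposited tables, and all 4 were among the 464 miRNAs with enough reads to be tested. Small RNAs came from K562, an established line of human chronic myeloid leukaemia cells, modified to carry dCas9-KRAB, an inactive Cas9 fused to a repressor domain, which turns down the gene that the guide RNA points to (CRISPR interference). Polyclonal doxycycline-inducible lines were made with 2 different ERH guide RNAs, 1 line per guide, each kept until day 5 in medium that held 0.05 µg/ml doxycycline (ERH knockdown) or lacked it (control). This gave 2 libraries per group, 1 per guide RNA. All 4 libraries come from lines of the same parental cells made to carry the repressor and an ERH guide RNA. No library came from cells given doxycycline without an ERH guide RNA, so that ERH knockdown and doxycycline itself cannot be told apart. Small-RNA libraries do not measure ERH mRNA, and how far it was reduced was not checked here.

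A miRNA hairpin is cut out of its primary transcript by the Microprocessor, made of the nuclease DROSHA and the hairpin-binding protein DGCR8. The cut hairpin is then trimmed by DICER to a duplex of a 5p and a 3p arm, of which Argonaute usually keeps 1 (the guide arm) while the other (the passenger arm) is lost. ERH is a small conserved protein that binds DGCR8, and the study's title concerns hairpins whose poor shape for the Microprocessor is offset by a neighbour in the same transcript. miR-191-5p is abundant in many cell types, and its fall late in red cell maturation is known to be needed for mouse erythroblasts to lose their nucleus. The comparison asks how much each arm of the 2 neighbours depends on ERH, and whether the neighbours change alike.

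Both hairpins are transcribed from the minus strand of chromosome 3, with MIR191 at chr3:49020618-49020709 and MIR425 at chr3:49020148-49020234 (GRCh38, GENCODE 29). MIR191 is the upstream of the pair, and 383 bases separate it from MIR425. Both lie within the first intron of the 4 annotated DALRD3 transcripts that span them. DALRD3 encodes a protein of arginine tRNA modification. In the gap between the hairpins, an exon of NDUFAF3, an assembly factor of mitochondrial complex I, runs on the opposite strand at chr3:49020459-49020570. The mature sequences of 3 arms are shown because the arms of this cluster are compared below. The seed (bases 2 to 8, which pairs with targets) is in capitals (RefSeq, GRCh38.p14). The reference used had no mature entry for miR-425-5p, so its sequence is not shown and its seed was not searched.
miR-191-5p: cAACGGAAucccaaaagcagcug
miR-191-3p: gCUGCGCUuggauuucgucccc
miR-425-3p: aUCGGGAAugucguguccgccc
Among 2090 miRNA names with both a count row and a RefSeq mature sequence, 0 others carried any of these 3 seeds.

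The 2 hairpins are printed because their predicted folds differ, with the 3 mature sequences above in capitals. The 5p arm of MIR425 is therefore not marked.
MIR191: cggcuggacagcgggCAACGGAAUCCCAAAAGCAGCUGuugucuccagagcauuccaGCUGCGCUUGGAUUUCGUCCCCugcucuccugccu
MIR425: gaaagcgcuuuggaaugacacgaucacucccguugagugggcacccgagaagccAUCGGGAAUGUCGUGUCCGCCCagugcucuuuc
RNAfold gave MIR191 a minimum free energy of -46.8 kcal/mol over 92 bases and MIR425 -34.5 kcal/mol over 87 bases, against a median of -41.05 kcal/mol over the 330 hairpins of tested miRNAs. Per base, and counted from the most stable, MIR191 stood at percentile 39.8 of these hairpins and MIR425 at percentile 82.3. MIR191 had 33 predicted base pairs and a terminal loop of 7 bases, the median loop of the 330 hairpins. MIR425 had 29 base pairs and a terminal loop of 12 bases, at percentile 86.7. Of the short motifs that help the Microprocessor, neither UGU nor GUG was found on the sense strand within either predicted terminal loop, closing bases included. The search covered only that loop. Outside it, MIR191 as printed holds UGU just after its 5p arm, and MIR425 holds GUG ahead of its 3p arm. The 2 motifs can overlap, and 21.5% and 14.8% of the 330 hairpins held them within the loop. MIR191 also had no UG 14 bases before its 5p arm, which 26 of 95 hairpins with enough flank had (27.4%). These folds and matches describe the annotated hairpins and were not set against the counts by a test.

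The libraries held 1430434 and 2476700 miRNA reads in the controls with guide RNA 1 and 2, and 2227374 and 2393565 after knockdown. The cluster took 1.38% and 1.31% of them in controls and 1.29% and 1.30% after knockdown. The labels do not say that libraries came from repeated cultures of 1 line, and p-values here reflect only how far these 4 libraries scatter, which may be technical. The 4 erythroid marker miRNAs summed to 39849 and 39087 CPM in controls (reads scaled so that every library has the same total) and to 52714 and 50883 after knockdown, and the 3 haematopoietic ones to 110093 and 109929 against 101827 and 102456. The 7 counted markers of other tissues were far lower, at 1091 and 1043 in controls and 1622 and 1579 after knockdown. All 3 sums thus differed between the groups, though the 4 erythroid markers did not move alike. The most abundant, miR-451a, had 25243 and 24549 CPM in controls and 24072 and 24129 after knockdown. Those of miR-144-3p, miR-144-5p and miR-486-5p were higher after knockdown. These CPM rest on library size alone, where the typical tested miRNA stood 0.50 higher on the log2 scale after knockdown and 58.8% rose (edgeR). The part of these markers in the results below was not tested. Levels below are CPM after TMM scaling, which sets the bulk of miRNAs equal between libraries, and "fell" means relative to that bulk. After TMM scaling miR-451a fell (log2 fold change -0.48 in edgeR), while miR-144-3p (0.74) and miR-144-5p (0.88) rose. The higher CPM of miR-486-5p by library size need not be a rise relative to that bulk. A lower level per cell and fewer cells holding a miRNA cannot be told apart in these bulk samples.

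After ERH knockdown all 4 members were lower relative to the bulk of miRNAs and passed the test (edgeR, quasi-likelihood, p adjusted by Benjamini-Hochberg over 464 miRNAs, threshold 0.05), where 25.2% of all tested miRNAs fell and 50.9% changed. The log2 fold changes were -0.90 for miR-425-5p, -0.88 for miR-191-3p, -0.41 for miR-425-3p and -0.35 for miR-191-5p; the tests of the differences between arms and between neighbours are given with the ratios. In order of log2 fold change from the lowest, miR-425-5p ranked 26th, miR-191-3p 29th, miR-425-3p 95th and miR-191-5p 109th of 464. The median of all tested miRNAs was 0.06. With library size alone in place of TMM this median lies 0.44 higher, and miR-191-5p and miR-425-3p then stand just above 0 (0.082 and 0.030, neither called), while miR-425-5p (-0.46) and miR-191-3p (-0.44) still pass; on that scale 8.84% of tested miRNAs fell and 58.8% rose. With the 2 added spike-in RNAs as the scale the median lies 0.68 higher, and 0 members are called, where 1.72% of tested miRNAs fell and 40.1% rose.

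miR-425-5p is the abundant arm of its hairpin. It had 5593 and 9426 reads in controls and 6076 and 6889 after knockdown, or 4433 and 4545 against 2307 and 2514 TMM-scaled CPM. Both knockdown libraries lay below both controls, as for 34.9% of tested miRNAs. The log2 fold change was -0.90 ± 0.06 (SE, 2 libraries per group; adjusted p = 5.2e-09 in edgeR), with -0.94 within guide RNA 1 and -0.85 within guide RNA 2. By reads it ranked 34th among detected miRNAs in each control, and 42nd and 40th after knockdown.

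miR-191-5p is the guide arm of the upstream hairpin and had the most reads of the 4 members. It had 14028 and 22793 reads in controls and 22503 and 23977 after knockdown, or 11119 and 10991 against 8544 and 8748 TMM-scaled CPM. The 2 controls differed by far less than the distance to the knockdown libraries. Both knockdown libraries lay below both controls here too, as for 34.9% of tested miRNAs. The log2 fold change was -0.35 ± 0.05 (SE; adjusted p = 2.5e-05 in edgeR), with -0.38 and -0.33 within the 2 guide RNAs, and it is 0.34 and uncalled with spike-in scaling. Its rank by reads was 17th in both controls and 18th in both knockdown libraries.

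The rarer 3p arms, the passenger strands, were counted at 79 to 185 reads per library, so their values are less precise. miR-191-3p had 79 and 147 reads in controls and 86 and 111 after knockdown, or 62.6 and 70.9 against 32.7 and 40.5 TMM-scaled CPM. The groups did not overlap, with both knockdown libraries lower, as for 34.9% of tested miRNAs. The log2 fold change of miR-191-3p was -0.88 ± 0.16 (SE, adjusted p = 3.4e-04 in edgeR), with -0.92 and -0.79 within the guide RNAs. This lies within its SE of the value for miR-425-5p, and the order of the pair turns without control replicate 1 (-0.96 against -0.92) or knockdown replicate 2 (-1.05 against -0.96). miR-425-3p had 100 and 185 reads in controls and 172 and 171 after knockdown, or 79.3 and 89.2 against 65.3 and 62.4 TMM-scaled CPM. Its groups did not overlap either, but the gap was small. Its log2 fold change was -0.41 ± 0.13 (SE; adjusted p = 0.016 in edgeR), with -0.28 and -0.51 within the guide RNAs. That call was lost with DESeq2 (adjusted p = 0.070) and without knockdown replicate 1 (0.076), knockdown replicate 2 (0.076) or control replicate 2 (0.137).

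**Figure D1:**
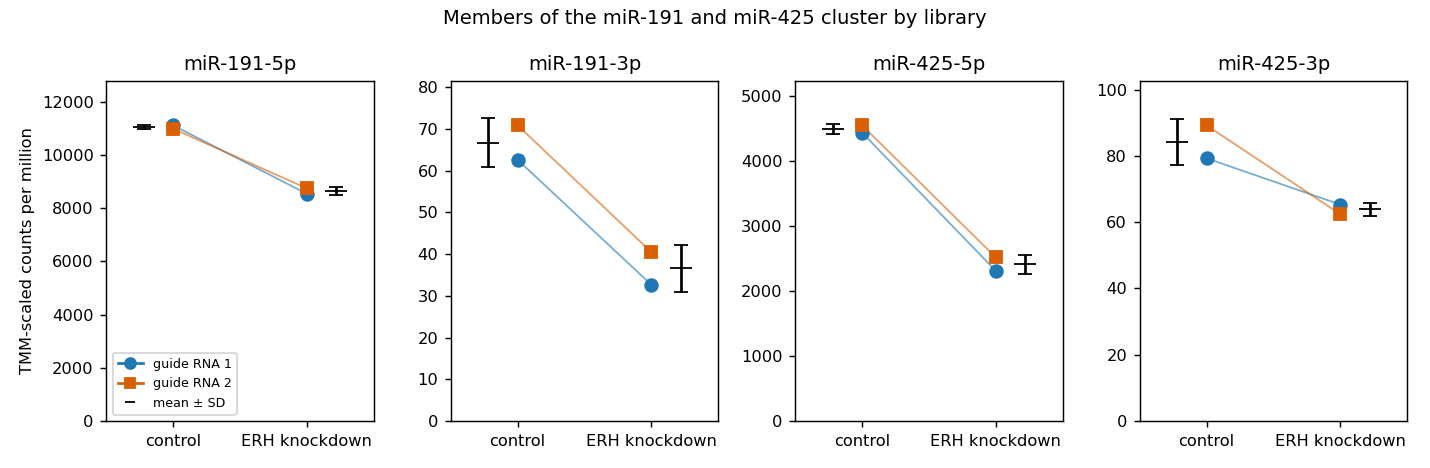
TMM-scaled CPM of the 4 members in each library (points, joined within a guide RNA) with the mean and SD of each group of 2 libraries. Both knockdown points lie below both control points in each panel, as for 34.9% of tested miRNAs. Group means (control against knockdown) are 4489 against 2410 for miR-425-5p and 66.8 against 36.6 for miR-191-3p. With library size alone miR-191-5p and miR-425-3p no longer lie lower.

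**Figure D2:**
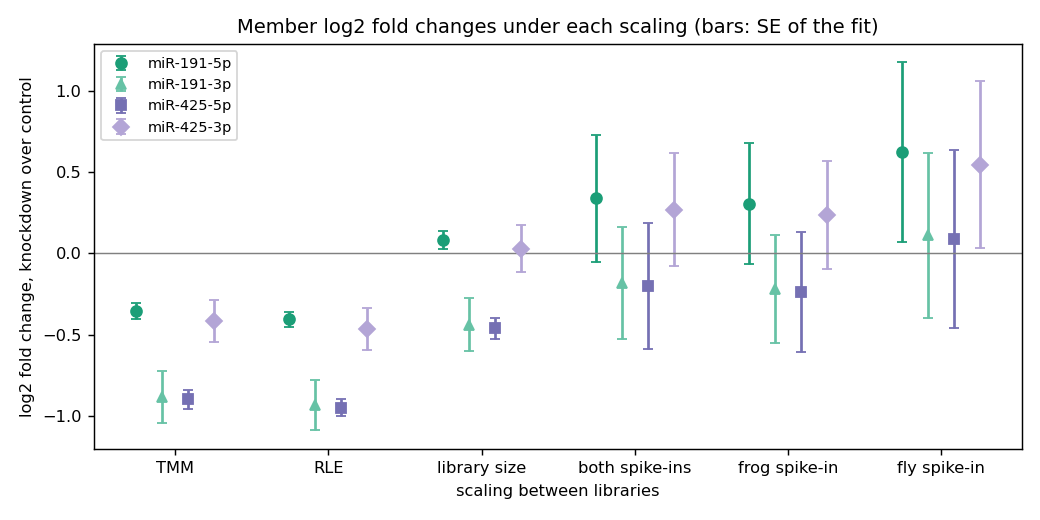
Log2 fold change of each member (knockdown over control; bars are the SE of the edgeR fit) under 6 scalings between libraries. The 4 members shift up together from TMM to the fly spike-in (from -0.90 to 0.087 for miR-425-5p and from -0.35 to 0.62 for miR-191-5p). They keep the same order under all 6. A change of scale moves every miRNA by nearly the same amount, so the common shift and the order follow largely from the scaling itself.

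Ratios taken inside 1 library are free of the scaling, and they show how far the neighbours parted. For each read of miR-191-5p there were 0.399 and 0.414 reads of miR-425-5p in controls and 0.270 and 0.287 after knockdown. The groups did not overlap, as in 49.4% of all neighbour pairs, and the 95% Clopper-Pearson intervals of counting error did not touch: the highest knockdown bound was 0.295 and the lowest control bound 0.386. The labels name no molecular identifiers, so these intervals cover counting error only. The mean ratio was 0.406 ± 0.010 in controls and 0.279 ± 0.012 after knockdown (SD, n = 2), a change of -32.3% within guide RNA 1 and -30.5% within guide RNA 2. The exact two-sided permutation p was 0.333, the smallest that 2 libraries per group allow.

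Clusters were chained from hairpins at most 10 kb from the next on 1 strand, and all 336 pairs within the 38 clusters were compared, so that hairpins of 1 chain can lie up to 89.978 kb apart. Among these pairs, the log2 change of this ratio was -0.54 ± 0.16 (SE, limma on log2 ratios). With 1 prior variance for all pairs its adjusted p was 0.207. In that test 0 pairs passed (0%), while 69 had an unadjusted p under 0.05. With a prior variance that follows read depth, 41 pairs passed (12.2%), and this pair had an adjusted p of 6.8e-06 (SE 0.06). It also passed among pairs with a mean count of at least 50 (adjusted p = 0.0044, limma), where 36 of 76 pairs passed. Among hairpins within 3 kb it passed as well (0.017), where 34 of 81 pairs passed. It did not pass with guide RNA as a replicate block (0.345), with 2 added to each count (0.179) or among hairpins within 50 kb (0.163). Without any 1 library the log2 change ran from -0.59 to -0.50 and was not called. Of the 336 pairs, 260 had a mean under 50 reads for the rarer partner, and 249 of those lie on chromosome 19. Among the 36 pairs whose 2 miRNAs both averaged at least 1000 reads, a limit chosen after the values were seen, the change was the 9th by size, against a median size of 0.19. Pairs of 1 cluster share hairpins, so these changes are not independent. Most of the larger ones come from the cluster of miR-17 and miR-92a. Each hairpin stands by its most abundant tested miRNA, so some pairs set a 5p arm against a 3p arm, such as miR-19a-5p per miR-18a-3p (-1.34).

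By the 3p arms, the neighbour ratio had the opposite direction in these libraries. For each read of miR-191-3p there were 1.266 and 1.259 reads of miR-425-3p in controls and 2.0 and 1.54 after knockdown. Both knockdown ratios were higher than both controls. The groups likewise did not overlap in 49.4% of the neighbour pairs tested above, and no such share was computed for 3p arms alone. The counting intervals overlap, with a lowest knockdown bound of 1.21 and a highest control bound of 1.72. The 2 guide RNAs differed in size, at 0.66 and 0.29 on the log2 scale. The exact permutation two-sided p was 0.333, the smallest possible, and no other test was made of this ratio.

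The same counts, read within each hairpin, give the arm ratios. miR-191 had 178 and 155 reads of 5p per read of 3p in controls and 262 and 216 after knockdown. The groups did not overlap, as in 49.5% of the 109 hairpins with both arms tested. The 3p arm made up 0.560% and 0.641% of the hairpin's reads in controls and 0.381% and 0.461% after knockdown. The Clopper-Pearson interval of the first control (0.444% to 0.697%) overlapped those of both knockdown libraries, which reached up to 0.470% and 0.555%.

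miR-425 had 55.9 and 51.0 reads of 5p per read of 3p in controls and 35.3 and 40.3 after knockdown. Its 3p arm made up 1.76% and 1.92% of the hairpin's reads in controls and 2.75% and 2.42% after knockdown. These groups did not overlap either, and the direction was opposite to that of miR-191. The log2 changes of the 5p to 3p ratio were 0.52 ± 0.18 for miR-191 and -0.50 ± 0.16 for miR-425 (SE, limma with 1 prior variance over 109 hairpins), with adjusted p of 0.221 and 0.211. By that test 0 hairpins passed (0%) and 21 had an unadjusted p under 0.05. With the depth-dependent prior variance 13 passed (11.9%), and miR-191 (adjusted p = 0.088) and miR-425 (0.078) were not among them. Neither arm ratio was thus called under either prior, although both changes were larger than the median size of 0.23 and ranked 20th and 23rd of 109.

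**Figure D3:**
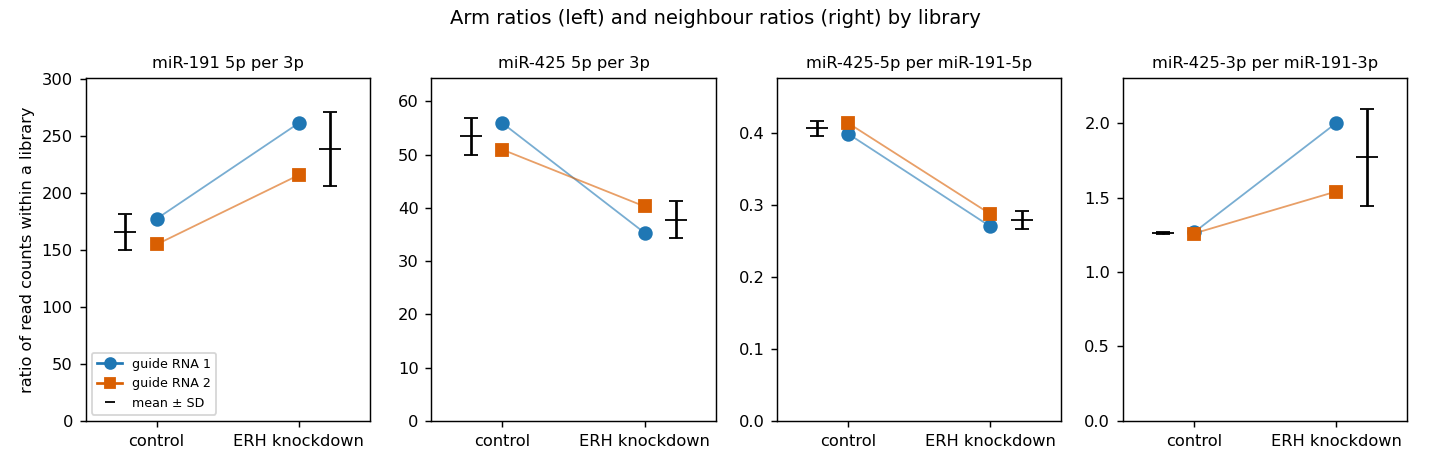
Ratios of read counts within each library (points, joined within a guide RNA) with the mean and SD of each group of 2 libraries, for the 5p to 3p ratio of each hairpin and for miR-425 per miR-191 by each arm. The miR-191 arm ratio (166 against 239 on average) and the 3p neighbour ratio (1.26 against 1.77) are higher in the knockdown libraries, and the miR-425 arm ratio (53.4 against 37.8) and the 5p neighbour ratio (0.406 against 0.279) are lower.

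Divided by each other, the 2 arm ratios give 1 number per library that uses all 4 members, a measure chosen after the values were seen. The miR-191 arm ratio was 3.17 and 3.04 times that of miR-425 in controls and 7.41 and 5.36 times after knockdown. Both knockdown libraries lay above both controls, and the groups did not overlap in 46.2% of the 26 pairs described next (means 3.11 ± 0.09 and 6.38 ± 1.45, SD, n = 2; exact permutation two-sided p = 0.333, the smallest possible). Among the 26 pairs of hairpins within 10 kb that have both arms tested, this log2 change of 1.02 ranked 5th by size, against a median size of 0.21. Many of these pairs come from 1 cluster, of miR-188, miR-362, miR-500a, miR-501, miR-532 and miR-660, whose largest change (0.29) ranked 9th. The median therefore rests largely on that cluster. The pairs ranked 1st and 2nd both hold miR-520a, whose rarer arm averaged 7.5 reads. As a description, the TMM-scaled log2 levels of the members, each centred on its own mean, differed across the 4 libraries by a root mean square of 0.08 between miR-191-3p and miR-425-5p and 0.08 between miR-191-5p and miR-425-3p. The other 4 combinations differed by 0.27 to 0.28.

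**Figure D4:**
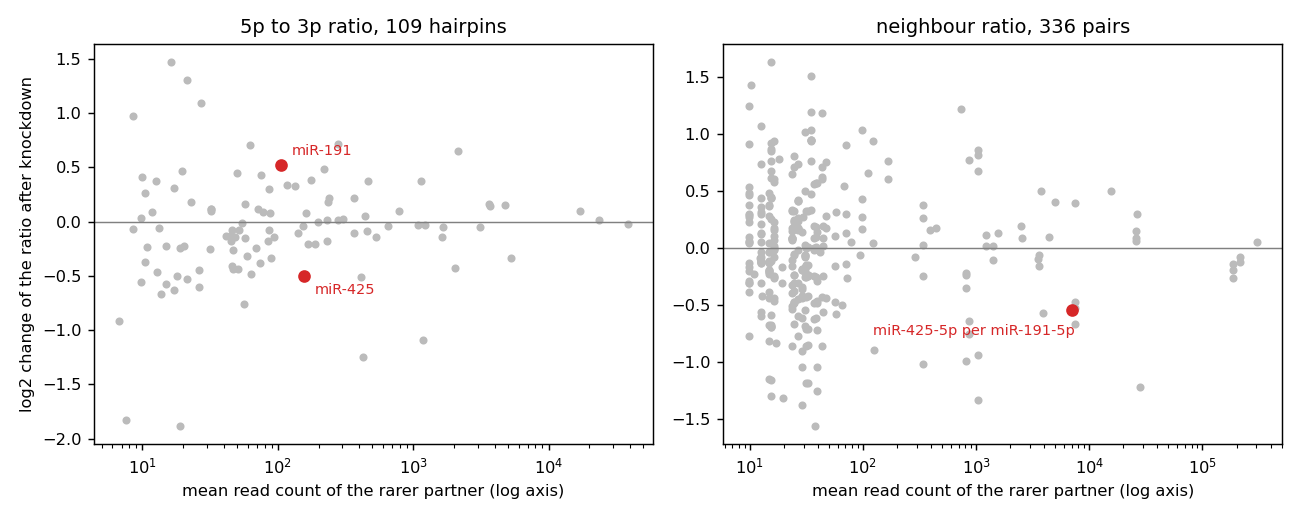
Log2 change after knockdown of the 5p to 3p ratio of 109 hairpins (left) and of the count ratio of 336 pairs of clustered neighbours (right), each against the mean read count of the rarer partner on a log axis. The 2 hairpins of the cluster lie at 0.52 and -0.50 among hairpins of like depth, and miR-425-5p per miR-191-5p lies at -0.54, where few pairs of that depth lie farther from 0.

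The miRNAs whose centred levels over the 4 libraries were most like each member, among those with a mean of at least 100 CPM, were found by the same distance. For miR-425-5p they were miR-1306-5p (distance 0.06), miR-15a-5p (0.07) and miR-15a-3p (0.08), against a median distance of 0.40 to 175 miRNAs. miR-15a is itself 1 of a pair of clustered hairpins, known for repressing cell survival genes, and miR-1306 is made from the DGCR8 gene. miR-191-3p was nearest to miR-532-5p (0.08), then to its neighbour's arm miR-425-5p (0.08) and to miR-92a-3p (0.09). For miR-191-5p the nearest were miR-148a-3p (0.02), miR-140-5p (0.02) and miR-16-5p (0.03), the last of these the abundant partner of miR-15a. For miR-425-3p they were miR-199b-5p (0.03), miR-221-3p (0.05) and miR-452-5p (0.05). The 4 libraries fall into 2 groups, so this distance weighs the fold change most.

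Other clustered miRNAs give the setting for these falls. Of a list of 36 miRNAs from other hairpin clusters, 30 had a row in the deposited counts, and all 30 were tested. The others have no row, which does not show whether they were expressed. Of the 30, 19 fell, 3 rose and 8 did not pass (edgeR, as above, against 25.2% and 25.6% of all tested). Their median log2 fold change was -0.31, against 0.06 for all 464. The lowest were the sparsely counted miR-212-3p (-1.65 ± 0.30, mean 20.7 CPM) and miR-181b-5p (-0.87 ± 0.23, mean 19.3 CPM), and the highest were miR-144-3p (0.74 ± 0.05) and miR-194-5p (0.52 ± 0.06). miR-191-5p, at -0.35, lay close to the median of the list. miR-425-5p, at -0.90, lay below 29 of the 30.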

How the data were processed

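The deposited values are raw read counts, 1 whole number per mature miRNA and library, from gel-purified small RNA of TRIzol extracts, per the labels' protocols. Aligner, annotation release and genome build: not given in the sources used here. Each table has 2368 rows, of which 2 are spike-in RNAs by name (frog miR-427 and fly miR-14), kept out of totals and tests. The members and lists were chosen with earlier results of these data known.

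Counts were filtered with filterByExpr (at least 10 reads by its rule, and 15 in total), leaving 464 miRNAs that hold 99.9% of all reads, scaled with TMM and tested with edgeR 4.0.16 (quasi-likelihood, R 4.3.3) for knockdown against control without a block. Guide RNAs pair the libraries by line, while the deviations of libraries of 1 guide from their group means had a correlation of -0.11. Libraries of 1 group differed beyond sampling noise (chi-square divided by its degrees of freedom was 3.93 between the knockdown libraries and 10.1 between the controls). Where a row is 0, up to 3 reads (1.21 to 2.10 CPM) are allowed by counting error. Log2 ratios of counts, with 0.5 added, were tested with limma 3.58.1 over all hairpins or neighbour pairs. Names were matched to GENCODE 29 hairpins (2363 of 2366), each hairpin standing by its most abundant tested miRNA. Folds came from RNAfold 2.7.2. The bases beyond the annotated hairpins, where CNNC is sought, were not analysed here. The named miRNAs are the 4 members, the 3 nearest to each, those sharing a seed, and the extremes of the cluster list. Alternatives were the replicate block, DESeq2 1.42.0, other scalings and filters, the prior variance, added counts, cluster distances and leaving out each library; scaling to each spike-in alone was added after seeing the data.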

Additional observations from a re-analysis of the deposited data

How the results depend on the processing

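The 3 members other than miR-425-3p kept their fall and their call with the replicate block, RLE, DESeq2, a minimum mean of 10 CPM, no filter, without the most abundant miRNA (miR-19b-3p) and without any 1 library. Without 1 library their values ran from -0.96 to -0.85 (miR-425-5p), -1.05 to -0.75 (miR-191-3p) and -0.39 to -0.35 (miR-191-5p), and those of miR-425-3p from -0.49 to -0.34. In such fits the lone library of a group is assumed to vary like the other group. miR-425-3p lost its call with DESeq2 (-0.46). Library size put miR-191-5p at 0.082 and miR-425-3p at 0.030. Both spike-ins put them at 0.34 and 0.27, and miR-191-3p at -0.18 and miR-425-5p at -0.20. The frog spike-in alone gave 0.31, 0.24, -0.22 and -0.24 in that order, and the fly spike-in alone 0.62, 0.55, 0.11 and 0.087, with 0 members called by any of the 3; the cause was not tested beyond the choice of scale itself.

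With guide RNA as a replicate block 231 miRNAs were called, against 236 without, and the block changed the call of 0 members. The count was 150 with DESeq2 (48 up, 102 down), 145 with the fly spike-in (144 up), and 117 to 195 without 1 library, with 117 without knockdown replicate 1, 140 without control replicate 2 and 160 without knockdown replicate 2. Library size gave 273 rises and 41 falls, and both spike-ins gave 186 rises and 8 falls. Called arm ratios, 0 at first, were 9 with the replicate block, 13 with the depth-dependent prior, 5 with 2 added to each count, 5 with a mean count of at least 50 and 0 to 0 without 1 library. The arm ratios of miR-191 (0.38 to 0.66 without 1 library) and miR-425 (-0.59 to -0.40) were called under none of these. Called neighbour ratios were 41 with the depth-dependent prior, 36 with a mean count of at least 50, 34 within 3 kb, and 0 to 63 without 1 library (42 without control replicate 1, 63 without control replicate 2). The neighbour ratio of the 5p arms, at -0.54 under each of these 3 settings, was called in them, and not with the replicate block (adjusted p = 0.345), 2 added to each count (0.179) or hairpins within 50 kb (0.163). It ran from -0.59 to -0.50 without 1 library, uncalled. At 79 to 185 reads, counting error limits the 3p arms.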

Other observations

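The spike-in RNAs give a view of the cluster that rests on no other miRNA. Per 1000 spike-in reads there were 304 and 392 reads of miR-191-5p in controls and 380 and 501 after knockdown, which overlap, and 121 and 162 reads of miR-425-5p against 103 and 144, which overlap as well. Within each guide RNA, by both spike-ins together, miR-191-5p was higher after knockdown and miR-425-5p lower. For miR-425-5p the direction depends on the spike-in. Its log2 fold change was -0.24 by the frog spike-in alone and 0.087 by the fly spike-in alone, neither called in edgeR. The 2 spike-ins did not keep 1 ratio, at 7.14 and 7.18 frog reads per fly read in controls and 7.78 and 9.82 after knockdown, so a scale set by either carries that spread. Their part in the shift between scalings was not tested.

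Within the cluster's own reads, miR-191-5p took 70.8% and 70.0% in controls and 78.04% and 76.98% after knockdown. miR-425-5p took 28.25% and 28.96% in controls and 21.1% and 22.1% after knockdown. The 3p arms held little of it in each library, with miR-191-3p at 0.298% to 0.452% and miR-425-3p at 0.505% to 0.596%.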
